A study of Mus musculus with 24 samples.

Results

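Transcription factors listed as mesenchymal and amniotic, not all of them high in amniotic cells, were followed through conversion of amniotic cells to endothelial cells (ECs). They were taken as a named list of 10 genes, Snai1, Snai2, Twist1, Twist2, Prrx1, Zeb1, Zeb2, Tcf21, Foxf1 and Meox1, out of 22282 genes in the deposited tables, and all 10 were found and passed the filter on low values. RNA of 8 groups of mouse cells was sequenced, with 3 libraries per group. MACs are cells of amniotic fluid from mid-gestation C57BL/6 embryos of mixed sex, pooled by litter and cultured in amniotic medium. RACVECs are MACs transduced with lentiviruses for the Ets factors Etv2, Erg and Fli1 and grown in EC medium that held VEGF-A and SB431542, an inhibitor of the Tgf-beta receptor, so that the Ets factors and the medium cannot be told apart. Akt-MACs and Akt-RACVECs also carried a lentivirus for constitutively active, myristoylated Akt, and Sox17-RACVECs one for Sox17. Akt-LECs and Akt-liver ECs are lung and liver ECs that were cultured with the same Akt virus and sorted for VEcad and CD31. LSECs are liver ECs that were sorted directly from the organ and not cultured.

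Snai1, Snai2, Zeb1 and Zeb2 are zinc finger repressors that bind E-box sequences and silence E-cadherin and other epithelial genes during epithelial to mesenchymal transition. Twist1, Twist2 and Tcf21 are basic helix-loop-helix factors that pair with E proteins, and Prrx1 and Meox1 are homeodomain factors of limb, craniofacial and somite mesenchyme. Foxf1 is a forkhead factor of visceral mesoderm that also acts in lung endothelium, and Snai1, Snai2, Zeb1 and Zeb2 are known in endothelium too, in sprouting and in endothelial to mesenchymal transition.

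On conversion without Akt, none of these genes passed the test in either direction, where 1.35% of all genes were called lower and 1.36% higher. Standard errors of the log2 fold change reached 2.14, so large changes may have been missed. Of 11 endothelial markers, 6 rose. Snai2, Twist1, Twist2 and Prrx1 were higher in MACs than in cultured ECs, which also differed from MACs by the Akt virus and EC medium. Of these genes, Prrx1 was lower in Sox17-RACVECs than in MACs. Of these calls only that of Snai2 was kept whichever library was left out, and those of Twist1, Twist2 and Prrx1 were lost without some single libraries. Snai1, Snai2, Zeb1 and Zeb2 were above 0 in all 24 libraries, endothelial cells included. Foxf1 and Meox1 were lower in MACs than in cultured ECs, calls that were lost without any 1 of the MACs for Foxf1 and without MAC 1 for Meox1. Tcf21 was listed at 0 in every MAC, RACVEC, Akt-RACVEC and Sox17-RACVEC library.

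All values below are FPKM, fragments per kilobase of transcript scaled to the size of the library, and groups were compared on log2(FPKM + 1), which understates changes of low genes. A gene was called when its adjusted p in limma was below 0.05 and its log2 fold change past 1 or -1. The number of reads behind each value is unknown, so a gene listed at 0 may be absent or may be a failed estimate. Over the 8 groups, 8 of the 10 genes passed limma's F test, where 54.0% of all genes tested did. The exceptions were Twist1 (adjusted p = 0.0950) and Tcf21 (adjusted p = 0.0577).

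Some libraries stood apart. The library labelled Sox17-RACVEC 2 had Etv2 listed at 0 against 458 and 378 in the other Sox17-RACVECs and a Pecam1 of 5144 against 586 and 714. It correlated best with Akt-RACVEC 3 (Pearson r = 0.970, on log2(FPKM + 1) of genes whose FPKM averaged at least 1). Sox17 was 5.09, 40.1 and 200 in Sox17-RACVECs 1, 2 and 3 and 12.0, 83.5 and 82.2 in Akt-RACVECs. Erg was 3.91, 13.8 and 0.9 in RACVECs and 395, 1002 and 418 in Akt-RACVECs. Akt-LEC 1 and Akt-liver EC 1 were closest to each other (r = 0.949) and held Col1a1 at 1065 and 556, Pdgfra at 343 and 66.0 and all 6 macrophage markers at 10 or more, with a sum of 1598 and 1095. In the other Akt-LECs and Akt-liver ECs that sum was between 0 and 18.6. In Akt-MACs 1, 2 and 3 the macrophage markers summed to 868, 9683 and 30787, against at most 14.7 in MACs, and the mesothelial markers summed to 2756 in Akt-MAC 3. The macrophage sum was also 916 in Sox17-RACVEC 1 and 304 in RACVEC 2. Each of these held 1 of the 6 markers at 10 or more, against 5 in Akt-MAC 1. The header of the RACVEC 3 file names Flk1 and a later day than the methods give for conversion, and that library held the mesothelial gene Msln at 2026 against 0 in RACVECs 1 and 2. LSECs held macrophage markers at 8602 to 14210 in sum and hepatocyte markers at 1882 to 10876. The 6 stellate cell markers summed to 440 to 602 in LSECs. That sum was also 2215 in MAC 1, 863 in MAC 3 and 558 in Akt-LEC 1. Of the 6, Lrat was 52.7 to 59.0 in LSECs and at most 7.1 elsewhere. Des was 14.2 to 18.7 in LSECs and 421 in Akt-LEC 1. The summed endothelial markers were 53.6 to 96.0 in MACs, 41.2 to 68.7 in Akt-MACs, 2175 to 4496 in RACVECs and 14187 to 23168 in Akt-RACVECs. In bulk RNA, fewer cells of a type and less RNA per cell cannot be told apart.

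**Figure D1:**
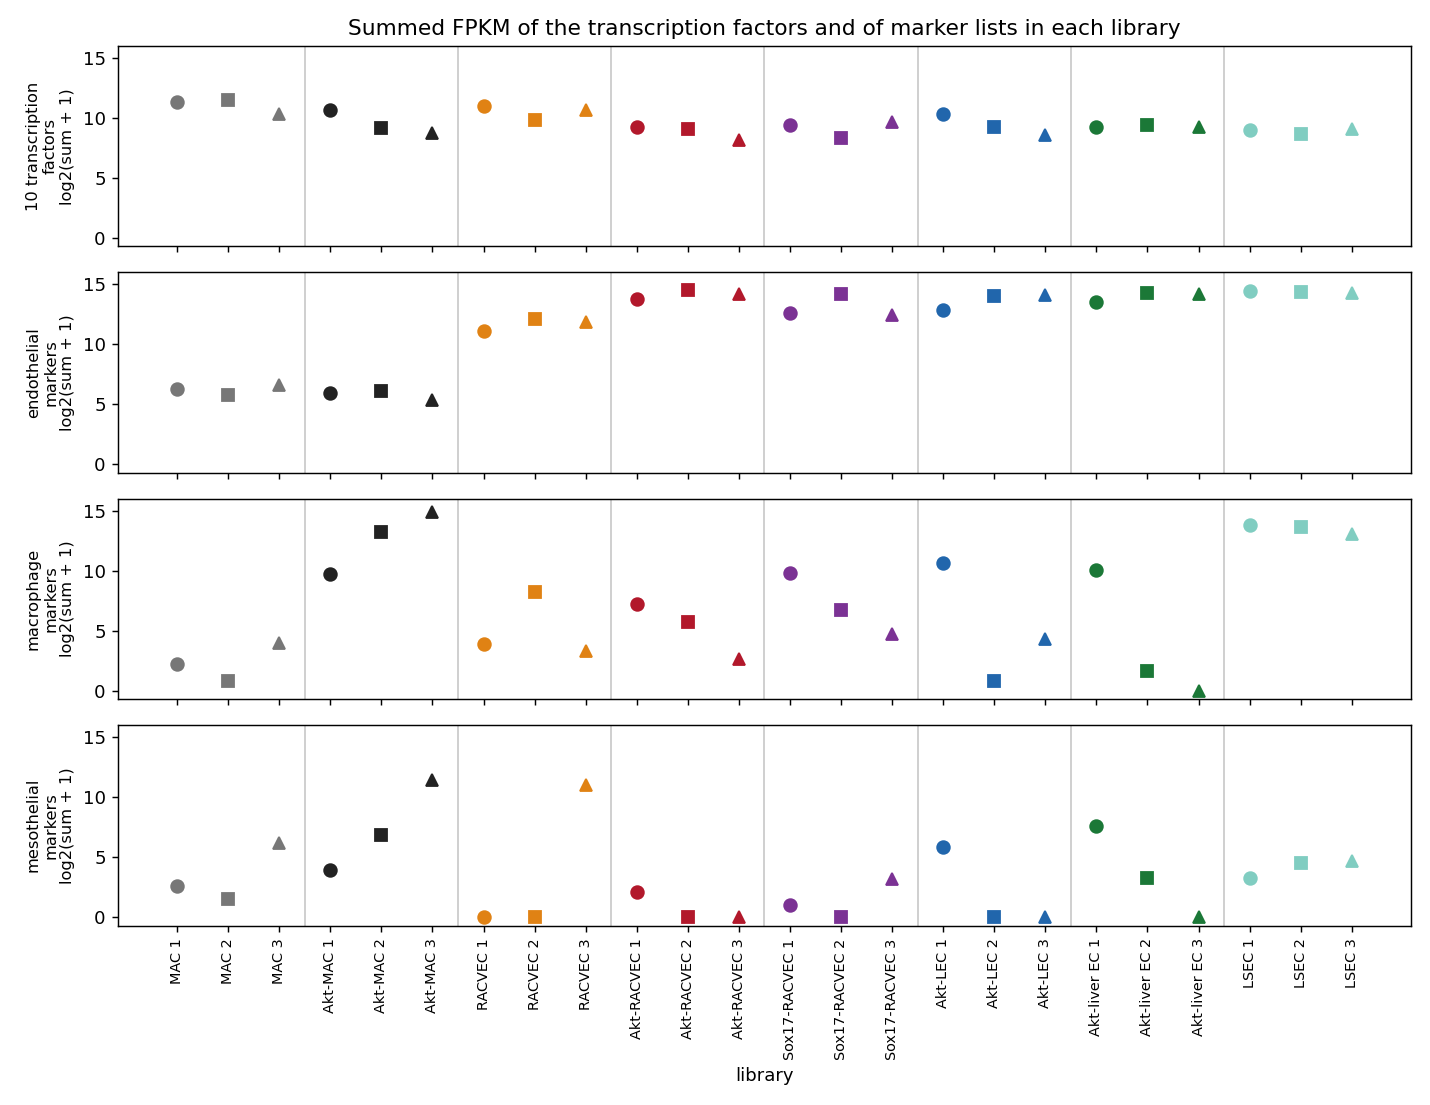
Summed FPKM of the 10 transcription factors (top) and of endothelial, macrophage and mesothelial markers in each of the 24 libraries, as log2(sum + 1), with circles, squares and triangles for libraries 1, 2 and 3. The macrophage sum of Akt-LEC 1 and Akt-liver EC 1 (1598 and 1095) sits far above that of libraries 2 and 3 of the same groups.

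The 250 bases upstream of the start site are shown for Prrx1, Twist1 and Twist2, which were high in MACs and listed at 0 in part of the Akt-transduced or Sox17-transduced converted cells, and for Snai1, which was present in every library. The sequences are from RefSeq on GRCm38.p6, which held a promoter for 6 of the 10 genes (Snai1, Twist1, Twist2, Prrx1, Zeb2 and Tcf21). They are written 5′ to 3′ in the direction of transcription, and capitals mark the core of an Ets site, GGAA or TTCC on the other strand, and the E-box CAGGTG or CACCTG that Snail and Zeb factors bind. They lie at chr2:167537945-167538194 (plus strand) for Snai1, chr12:33957421-33957670 (plus strand) for Twist1, chr1:91801211-91801460 (plus strand) for Twist2 and chr1:163313651-163313900 (minus strand) for Prrx1.
Snai1: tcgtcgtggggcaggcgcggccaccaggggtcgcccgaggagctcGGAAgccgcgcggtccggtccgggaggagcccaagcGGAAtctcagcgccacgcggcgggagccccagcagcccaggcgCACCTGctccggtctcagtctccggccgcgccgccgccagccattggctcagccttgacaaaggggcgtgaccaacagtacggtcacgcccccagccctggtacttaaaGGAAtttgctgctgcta
Twist1: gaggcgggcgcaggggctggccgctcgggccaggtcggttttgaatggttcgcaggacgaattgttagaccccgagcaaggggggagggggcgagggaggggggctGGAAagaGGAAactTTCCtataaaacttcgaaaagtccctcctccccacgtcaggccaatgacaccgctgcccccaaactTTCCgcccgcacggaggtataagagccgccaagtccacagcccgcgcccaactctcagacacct
Twist2: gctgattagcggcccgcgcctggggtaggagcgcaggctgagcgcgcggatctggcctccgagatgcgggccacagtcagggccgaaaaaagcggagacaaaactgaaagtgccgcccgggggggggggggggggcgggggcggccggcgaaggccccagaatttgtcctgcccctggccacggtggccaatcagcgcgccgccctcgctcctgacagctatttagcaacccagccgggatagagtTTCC
Prrx1: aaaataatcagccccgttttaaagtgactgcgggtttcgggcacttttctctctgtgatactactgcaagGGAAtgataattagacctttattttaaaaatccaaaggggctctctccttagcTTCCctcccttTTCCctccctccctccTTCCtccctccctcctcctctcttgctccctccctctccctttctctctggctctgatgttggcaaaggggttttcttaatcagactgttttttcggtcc
The Ets core occurred 3 times upstream of Snai1, 4 times each upstream of Twist1 and Prrx1 and once upstream of Twist2. It is short, and 93.4% of 32851 promoters of this length held it on either strand. The longer CCGGAA or TTCCGG, held by 12.0% of promoters, was in none of the 6. The E-box, held by 17.2% of promoters, was in that of Snai1 only, in 1 copy. A match of letters is a description of the window and not a bound site.

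On mm9, the build the authors used, and with gene limits from GENCODE M1 that span exons and introns, Snai1 lies on chromosome 2 from 167363695 to 167368314, Snai2 on chromosome 16 from 14705945 to 14709488, Twist1 on chromosome 12 from 34642536 to 34644682 and Twist2 on chromosome 1 from 93698038 to 93744605. Prrx1 lies on chromosome 1 from 165175247 to 165243841, Zeb2 on chromosome 2 from 44839154 to 44972915 and Tcf21 on chromosome 10 from 22537085 to 22539934. Foxf1, named Foxf1a there, lies on chromosome 8 from 123608286 to 123610851 and Meox1 on chromosome 11 from 101738824 to 101755688. Zeb1 is on chromosome 18. Prrx1 was the sum of 3 transcripts, and the other 9 genes had 1 transcript each.

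**Figure D2:**
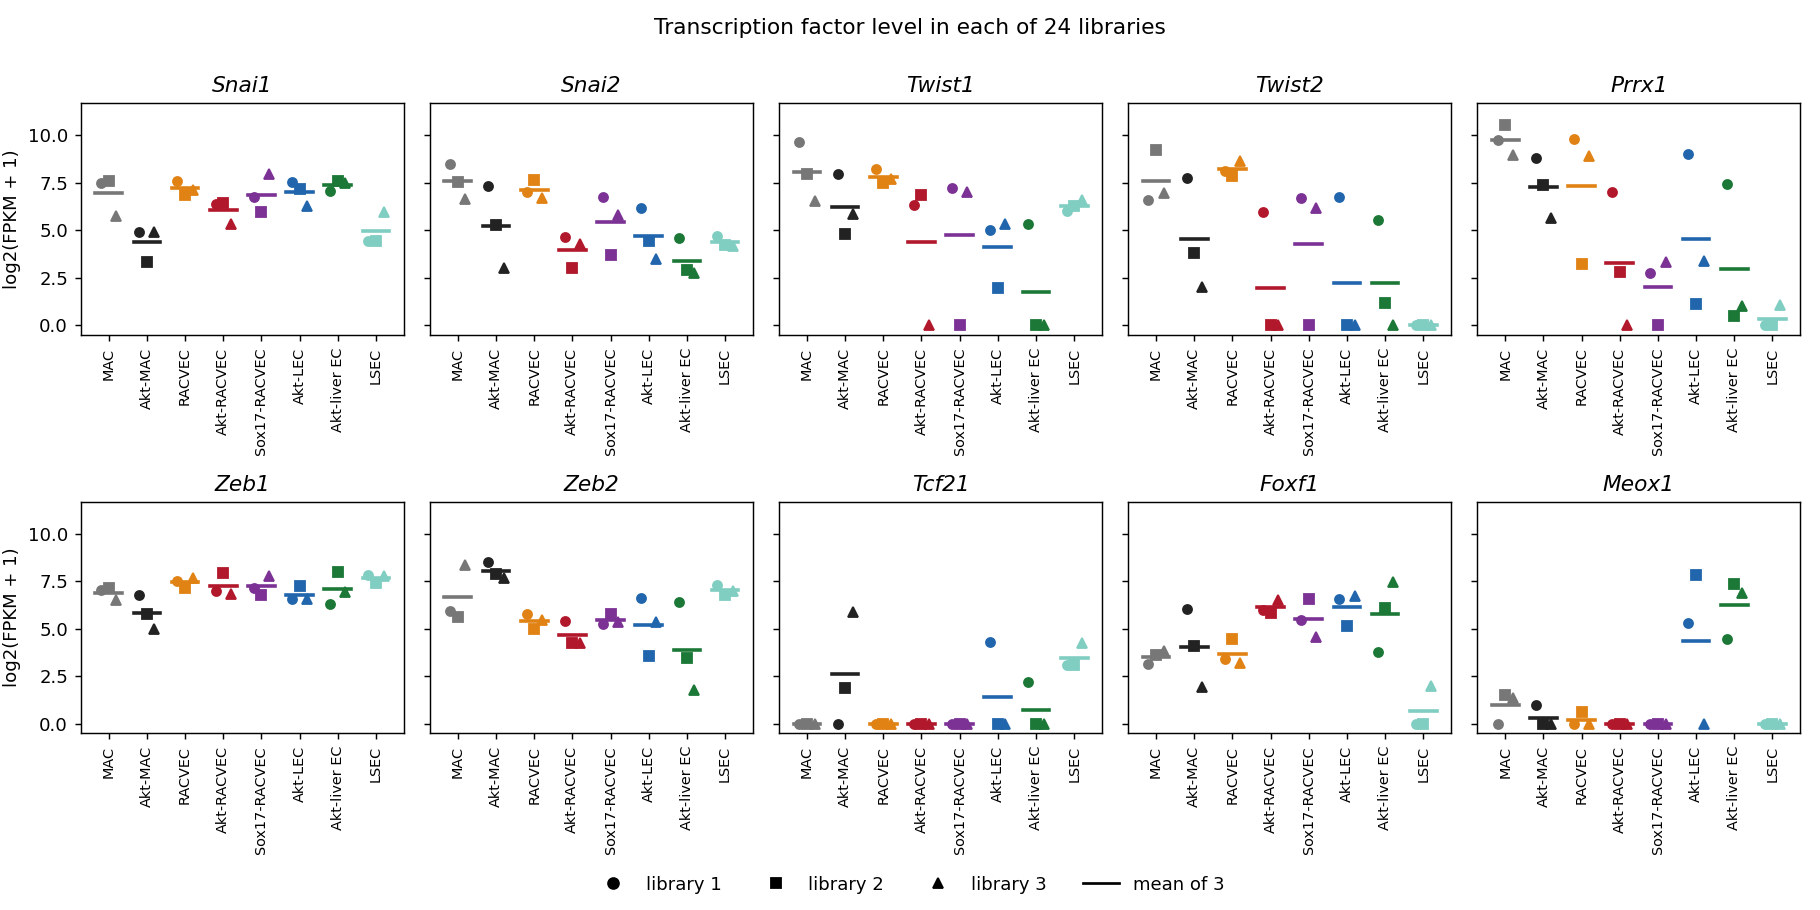
Level of each of the 10 transcription factors in every library as log2(FPKM + 1), with circles, squares and triangles for libraries 1, 2 and 3 of a group and a line at their mean. Snai1 and Zeb1 are above 0 in all 24 libraries, whereas Twist1 and Twist2 fall to 0 in part of the Akt-RACVECs, Sox17-RACVECs and cultured ECs, and Prrx1 in Akt-RACVEC 3, the library labelled Sox17-RACVEC 2 and 2 LSECs.

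Prrx1, a homeodomain factor of limb and craniofacial mesenchyme, was the highest of the 10 genes in MACs by mean. Its FPKM was 881, 1519 and 497 in MACs 1, 2 and 3 and 446, 167 and 48.6 in Akt-MACs. In RACVECs it was 888, 8.27 and 490, so that RACVEC 1 held a MAC level and RACVEC 2 did not. In Akt-RACVECs it was 130, 5.96 and 0, and in Sox17-RACVECs 5.76, 0 and 9.02. All Sox17-RACVECs were thus far below all MACs, and all Akt-RACVECs and all Akt-MACs were below all MACs as well. Against MACs, the log2 fold change was -2.46 in RACVECs (standard error 2.14, 95% interval -6.95 to 2.04, adjusted p = 0.570, from -3.70 without RACVEC 1 to -0.40 without RACVEC 2) and -7.74 in Sox17-RACVECs (standard error 2.14, adjusted p = 0.0251), which was called. Without the library labelled Sox17-RACVEC 2 the value was -6.73 (adjusted p = 0.0804), and leaving out MAC 1, MAC 2 or Sox17-RACVEC 1 also ended the call. Against RACVECs, Prrx1 had a log2 fold change of -5.29 in Sox17-RACVECs (adjusted p = 0.652) and -4.04 in Akt-RACVECs (adjusted p = 0.366), both not called.

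Prrx1 was uneven in cultured ECs as well. Akt-LECs held 524, 1.22 and 9.50, Akt-liver ECs 172, 0.41 and 1.07, and it was 0, 0 and 1.13 in LSECs. The high values were those of Akt-LEC 1 and Akt-liver EC 1, the libraries with Col1a1, Pdgfra and macrophage markers given above, whose part in the result was not tested. Fits without them, here and below, were chosen after the data were seen. Leaving out the highest Prrx1 values of the cultured ECs widens the difference by itself. MACs exceeded the mean of the cultured ECs by 6.01 on the log2 scale (standard error 1.86, adjusted p = 0.0296) and by 8.25 without these 2 libraries (adjusted p = 0.00153). Leaving out MAC 1, 2 or 3 ended this call (adjusted p = 0.0876, 0.0869 and 0.0592), as did leaving out library 2 or 3 of the Akt-LECs or of the Akt-liver ECs. RACVECs exceeded cultured ECs by 3.56 (adjusted p = 0.371), a difference that was called only without them, at 5.79 (adjusted p = 0.0413). In the 11 libraries with a Prrx1 sum of at least 10, its 3 transcripts held a median of 43.2%, 38.4% and 13.3% of the sum, and the largest share was never above 54.3%.

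Twist1, a factor of cranial and limb mesenchyme that is mutated in craniosynostosis, was 808, 251 and 91.7 in MACs and 305, 177 and 205 in RACVECs, ranges that overlap. Its log2 fold change between them was -0.25 (standard error 1.90, 95% interval -4.23 to 3.73, adjusted p = 0.992). It was 252, 26.9 and 57.0 in Akt-MACs, 80.3, 117 and 0 in Akt-RACVECs and 149, 0 and 131 in Sox17-RACVECs, where only Akt-RACVEC 3 and the library labelled Sox17-RACVEC 2 were at 0. The log2 fold change of Sox17-RACVECs against MACs was -3.30 (standard error 1.90, adjusted p = 0.266), and -0.92 without the library labelled Sox17-RACVEC 2 (adjusted p = 0.803). In cultured ECs Twist1 was 32.0, 2.87 and 39.4 in Akt-LECs, and Akt-liver ECs held 39.6, 0 and 0, all of them below every MAC. MACs were higher than cultured ECs by 5.11 (standard error 1.65, adjusted p = 0.0357), a call that was lost without MAC 1 (adjusted p = 0.154), MAC 2 (adjusted p = 0.0782), Akt-LEC 2 or either of Akt-liver ECs 2 and 3. LSECs held 64.8, 75.9 and 96.2, above all Akt-LECs and Akt-liver ECs. LSECs also held 5 to 6 of the 6 stellate cell markers at 10 or more, against at most 4 in any other group. The part of stellate cells in the Twist1 values was not tested.

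Twist2, the close relative of Twist1 that is expressed in dermal mesenchyme, was 97.4, 598 and 126 in MACs and 276, 236 and 400 in RACVECs. Every RACVEC library lay within the range of the MACs, and the log2 fold change was 0.60 (standard error 2.09, 95% interval -3.78 to 4.99, adjusted p = 0.936). In Akt-RACVECs Twist2 was 61.2, 0 and 0, below every RACVEC. Their log2 fold change of -6.23 (standard error 2.09) had an unadjusted p of 0.00782 and was not called (adjusted p = 0.154). Sox17-RACVECs held 102, 0 and 72.7 (log2 fold change against MACs -3.32, adjusted p = 0.314, and -1.17 without the library labelled Sox17-RACVEC 2), and Akt-MACs 212, 13.2 and 3.04. Akt-LECs held 107, 0 and 0 and Akt-liver ECs 46.5, 1.27 and 0, and Twist2 was listed at 0 in all LSECs. MACs were higher than cultured ECs by 5.36 (standard error 1.81, adjusted p = 0.0435), and RACVECs by 5.97, which was not called (adjusted p = 0.0994). The call for MACs was lost without MAC 1, 2 or 3 (adjusted p = 0.0857, 0.148 and 0.0843) and without library 2 or 3 of either cultured EC group. Without Akt-LEC 1 and Akt-liver EC 1, which held the high EC values, these differences were 7.32 (adjusted p = 0.00497) and 7.92 (adjusted p = 0.0112).

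Snai2, or Slug, a Snail repressor of neural crest and mesoderm, was 366, 184 and 102 in MACs and 127, 198 and 103 in RACVECs, again with overlap. The log2 fold change was -0.46 (standard error 0.94, 95% interval -2.43 to 1.50, adjusted p = 0.856). In Akt-RACVECs it was 24.1, 7.16 and 18.8, so that each was below every RACVEC. Their log2 fold change of -3.12 (standard error 0.94) had an unadjusted p of 0.00360 and an adjusted p of 0.114, and it was not called. Sox17-RACVECs held 109, 12.2 and 55.9, with the lowest value in the library labelled Sox17-RACVEC 2, and their log2 fold change against MACs was -2.13 (adjusted p = 0.142), and -1.27 without that library. Akt-MACs spanned 164, 38.4 and 7.13. Cultured ECs held 71.8, 21.1 and 10.3 in Akt-LECs, and Akt-liver ECs held 23.2, 6.53 and 5.69, all of them below every MAC and every RACVEC. MACs exceeded them by 3.51 (standard error 0.81, adjusted p = 0.00626), and RACVECs by 3.05 (standard error 0.81), which just missed the threshold (adjusted p = 0.0584) and passed it without Akt-LEC 1 and Akt-liver EC 1 at 3.71 (adjusted p = 0.0166). LSECs held 25.1, 18.0 and 17.0.

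Snai1, the founding Snail repressor, was not called between MACs and cultured ECs. It was 180, 193 and 53.0 in MACs, 195, 117 and 141 in RACVECs, 107, 61.2 and 247 in Sox17-RACVECs and 81.8, 87.3 and 39.6 in Akt-RACVECs. From MACs to RACVECs the log2 fold change was 0.26 (standard error 0.59, 95% interval -0.98 to 1.50, adjusted p = 0.877). Akt-LECs held 189, 144 and 76.5 and Akt-liver ECs 132, 193 and 180. The lowest mean was that of Akt-MACs, with 29.7, 9.27 and 29.5, all below every MAC. Snai1 was the only gene of the list called lower in Akt-MACs than in MACs (log2 fold change -2.54, standard error 0.59, adjusted p = 0.0249). Snai2 (-2.35) and Zeb1 (-1.06) were lower at an unadjusted p of 0.0216 and 0.0243. The Snai1 call was lost without MAC 1 (adjusted p = 0.0954), MAC 2 (adjusted p = 0.128) or Akt-MAC 2 (adjusted p = 0.161). It was also lost with the compared groups alone (adjusted p = 0.494). Leaving out Akt-MACs 2 and 3, the libraries with high macrophage markers, left a log2 fold change of -2.01 and no call (adjusted p = 0.767), with a single Akt-MAC library assumed to vary like the other groups.

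Zeb1, a repressor of epithelial genes that is active in many mesenchymal cells, was at or above 30.8 in all 24 libraries. It was 132, 141 and 91.0 in MACs, 186, 140 and 203 in RACVECs, 127, 241 and 112 in Akt-RACVECs and 142, 109 and 220 in Sox17-RACVECs. Conversion to RACVECs gave a log2 fold change of 0.54 (standard error 0.43, 95% interval -0.37 to 1.45, adjusted p = 0.527), the narrowest interval of the 10 genes. Akt-LECs held 95.0, 151 and 93.5, Akt-liver ECs 78.7, 250 and 122 and LSECs 226, 173 and 217. The lowest library was Akt-MAC 3, with 30.8 against 53.7 and 109 in Akt-MACs 2 and 1. Akt-RACVECs were therefore all above all Akt-MACs, and Zeb1 was called higher by 1.40 (standard error 0.43, adjusted p = 0.0264). Without Akt-MACs 2 and 3 the difference was 0.47 (adjusted p = 0.677). Leaving out Akt-MAC 2 alone (adjusted p = 0.0781), Akt-MAC 3 alone (adjusted p = 0.133) or Akt-RACVEC 2 (adjusted p = 0.127) also ended the call.

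Zeb2, the paralog of Zeb1 that is also expressed in macrophages and neural crest, was lower rather than higher in Akt-RACVECs than in Akt-MACs. It was 60.5, 49.2 and 334 in MACs, 364, 234 and 204 in Akt-MACs and 54.7, 30.9 and 43.1 in RACVECs. MAC 3 was close to the Akt-MACs and MACs 1 and 2 were close to the RACVECs, and the log2 fold change on conversion was -1.24 (standard error 0.90, 95% interval -3.13 to 0.65, adjusted p = 0.474), and -0.38 without MAC 3. Akt-RACVECs held 42.1, 18.4 and 18.1 and Sox17-RACVECs 36.8, 53.8 and 39.7. Zeb2 fell from Akt-MACs to Akt-RACVECs (log2 fold change -3.37, standard error 0.90, adjusted p = 0.0127). The macrophage sums were 868, 9683 and 30787 in Akt-MACs 1, 2 and 3 and 14.7 in MAC 3. Against Akt-MAC 1 alone, which itself held 5 of 6 macrophage markers at 10 or more, the log2 fold change was -3.86. That value rests on 1 Akt-MAC library, whose spread could not be measured, and it was not called. The macrophage markers move with the Akt-MAC group, and their part in the result was not tested. Akt-LECs held 98.6, 10.8 and 39.7, Akt-liver ECs 85.1, 10.1 and 2.47 and LSECs 159, 107 and 127, where the macrophage markers were high in every library. The excess of MACs over cultured ECs of 2.12 was not called (adjusted p = 0.0616), and was called without Akt-LEC 1 and Akt-liver EC 1 at 3.12 (adjusted p = 0.00159).

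Foxf1, a forkhead factor of visceral mesoderm and lung vessels, was low in MACs, with 7.95, 11.3 and 13.2, and in RACVECs, with 9.64, 20.8 and 8.37. Their log2 fold change was 0.16 (standard error 0.92, 95% interval -1.76 to 2.08, adjusted p = 0.976). All Akt-RACVECs, with 63.3, 56.4 and 92.0, and all Sox17-RACVECs, with 43.7, 92.6 and 23.0, were above all MACs and RACVECs. The log2 fold change of Akt-RACVECs against RACVECs was 2.43 (standard error 0.92) with an unadjusted p of 0.0159, and it was not called (adjusted p = 0.202). That of Sox17-RACVECs against MACs was 2.00 (adjusted p = 0.159), not called either. Akt-MACs spread widely, with 65.2, 16.1 and 2.81, and Akt-RACVECs exceeded them by 2.10 (adjusted p = 0.103). Foxf1 was 93.3, 35.2 and 104 in Akt-LECs, and Akt-liver ECs held 12.9, 66.4 and 174. It was lower in MACs than in cultured ECs (log2 difference -2.43, standard error 0.79, adjusted p = 0.0383). That call was lost without MAC 1, 2 or 3 (adjusted p = 0.131, 0.0795 and 0.0752), Akt-LEC 1 or 3, or Akt-liver EC 2 or 3. RACVECs had a log2 difference of -2.27 from them (adjusted p = 0.149). In LSECs it was 0, 0 and 2.96.

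Meox1, a homeodomain factor of somites, was found in cultured ECs only at an FPKM above 2. It was 38.8, 225 and 0 in Akt-LECs, Akt-liver ECs held 21.2, 162 and 118, and MACs held 0, 1.92 and 1.59, Akt-MACs 0.98, 0 and 0 and RACVECs 0, 0.56 and 0. It was listed at 0 in every Akt-RACVEC, Sox17-RACVEC and LSEC library. The log2 difference from cultured ECs was -4.34 in MACs (standard error 1.04, adjusted p = 0.00799) and -5.10 in RACVECs (standard error 1.04, adjusted p = 0.0164), both called. The first was lost without MAC 1 (adjusted p = 0.0524) and the second without RACVEC 1 (adjusted p = 0.0799) or RACVEC 3 (adjusted p = 0.0829). Between MACs and RACVECs the log2 fold change was -0.76 (95% interval -3.29 to 1.77, adjusted p = 0.799).

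Tcf21, a factor of epicardial, kidney and lung mesenchyme and of liver stellate cells, was above 0 in only 7 libraries. Akt-MACs held 0, 2.75 and 58.6, and the highest value was in Akt-MAC 3, the library with the highest mesothelial and macrophage markers. It was 18.7 in Akt-LEC 1 and 3.68 in Akt-liver EC 1, the libraries with Col1a1 and macrophage markers, and 0 in libraries 2 and 3 of both groups. LSECs held 7.67, 7.66 and 17.9, together with 5 to 6 of the 6 stellate cell markers at 10 or more, Lrat among them. The part of other cell types in these values was not tested.

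**Figure D3:**
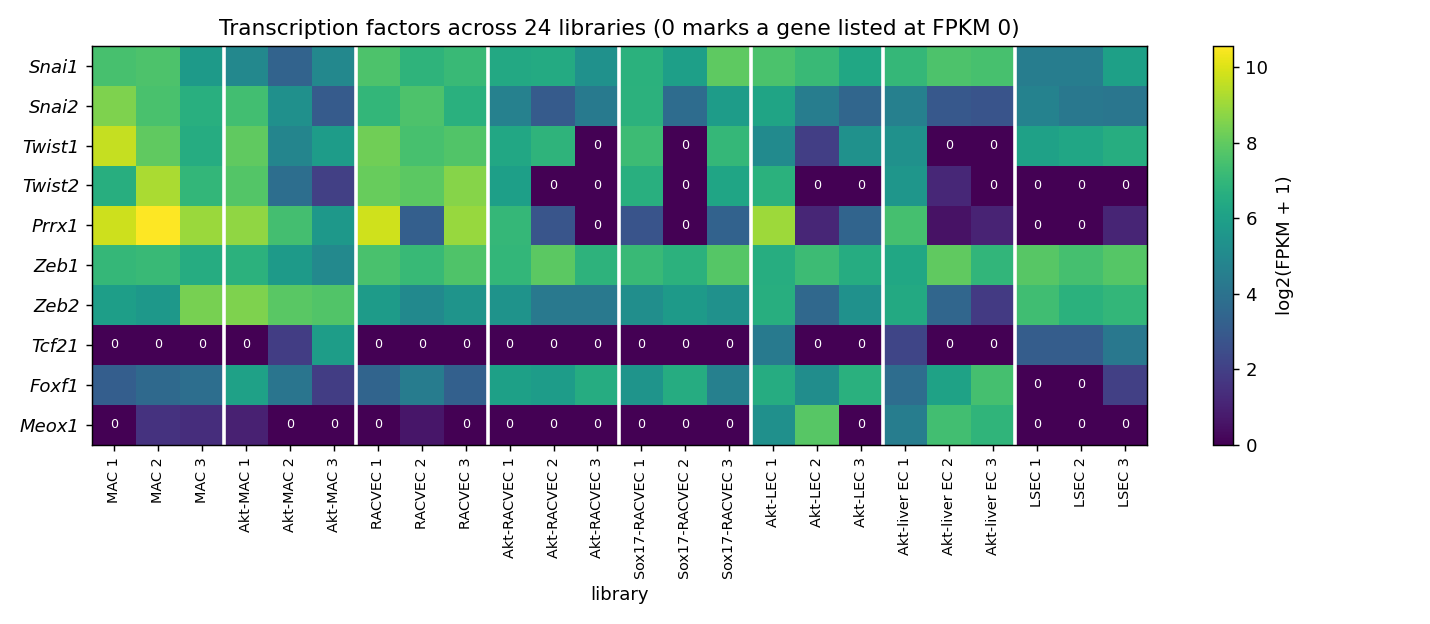
Level of the 10 transcription factors (rows) in the 24 libraries (columns) as log2(FPKM + 1), with a 0 where the gene is listed at FPKM 0. Akt-RACVEC 3 and the library labelled Sox17-RACVEC 2 share the same 5 zeros, and Akt-LEC 1 and Akt-liver EC 1 hold a value above 0 for every gene.

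Taking the list by comparison, RACVECs against MACs gave 0 genes lower and 0 higher, where 1.35% of all genes tested were called lower and 1.36% higher. At an unadjusted p below 0.05 the list again had 0 in either direction, and the median log2 fold change of the 10 genes was -0.13 against 0 over all genes tested. Akt-RACVECs against Akt-MACs gave 1 lower (Zeb2) and 1 higher (Zeb1), where the background was 13.4% lower and 6.15% higher, and the median was -1.52 against -0.09 over all genes. Sox17-RACVECs against MACs gave 1 lower (Prrx1) and 0 higher, with a background of 6.83% and 3.81% and a median of -1.09. With so many genes called in these 2 comparisons, 1 of 10 is near the background.

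The steps after conversion called none of the list. In Akt-RACVECs against RACVECs 0 genes were lower and 0 higher (background 0.0401% and 0.221%). At an unadjusted p below 0.05 with a log2 fold change past 1 or -1, Snai2 and Twist2 were lower and Foxf1 higher. By that rule 784 genes were lower and 717 higher of the 14964 tested. In Sox17-RACVECs against RACVECs 0 were lower and 0 higher (background 0.00668% and 0.00%), with Prrx1 lower at an unadjusted p of 0.0235. By the same rule 506 of all genes were lower. Akt-MACs against MACs gave 1 lower (Snai1) and 0 higher, where 0.214% and 2.59% of all genes were called. The difference between conversion with Akt and conversion without was tested as an interaction, and 0 genes of the list were called lower and 0 higher (background 0.0936% and 0.00668%, and 0 at an unadjusted p below 0.05). Its value for Zeb2 was -2.13 (standard error 1.27, adjusted p = 0.535), so a different change of Zeb2 with Akt was not shown. Comparisons that share a group, such as RACVECs and Sox17-RACVECs against the same MACs, are not independent of each other.

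**Figure D4:**
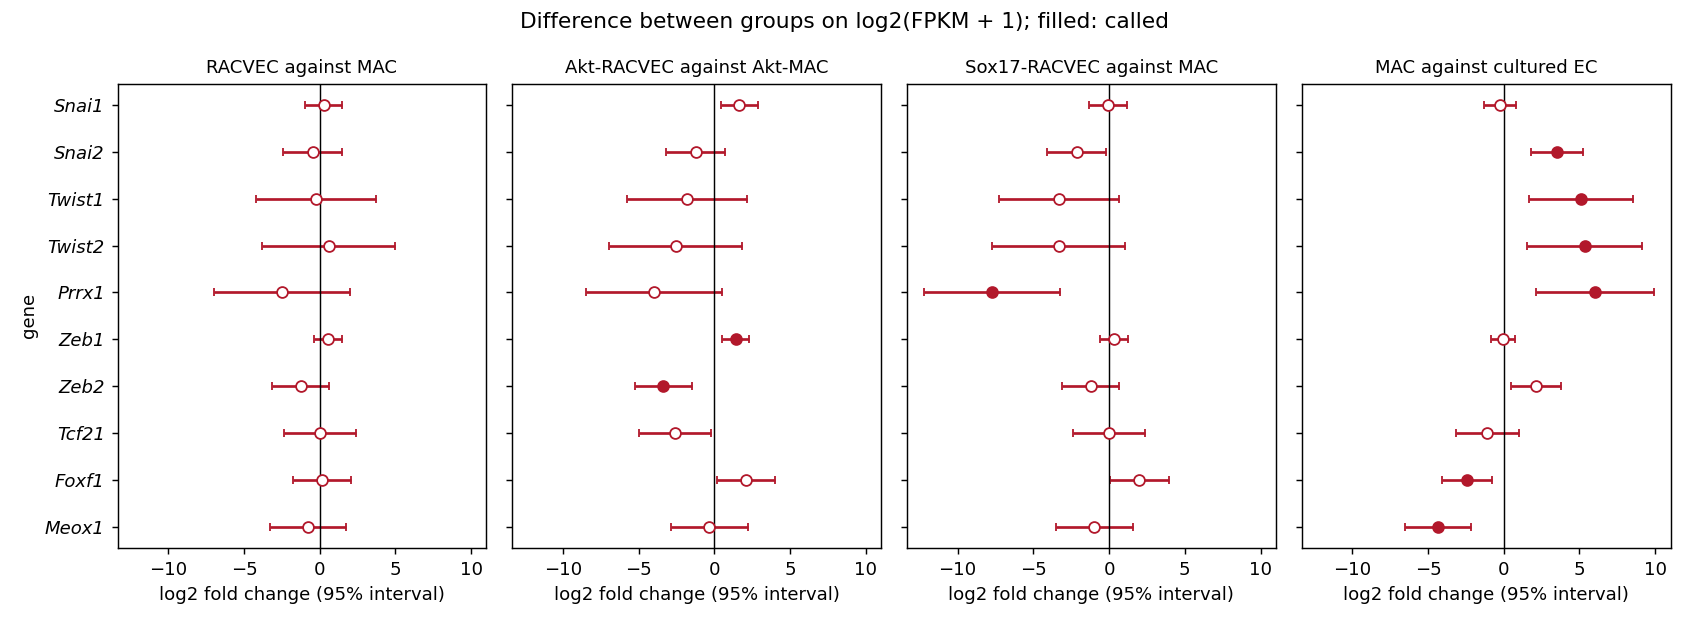
Log2 fold change of each of the 10 genes with its 95% interval from limma in 4 comparisons, with filled circles for called genes. All 10 intervals of RACVECs against MACs include 0, and Snai2, Twist1, Twist2 and Prrx1 are filled to the right of 0 and Foxf1 and Meox1 to the left in MACs against cultured ECs.

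Against cultured endothelium the list divided. These ECs carried the Akt virus and were grown in EC medium, whereas MACs had neither and RACVECs lacked the virus. Cell type, Akt and medium therefore cannot be told apart in the comparison with MACs, nor cell type and Akt in that with RACVECs. MACs against cultured ECs gave 4 genes higher (Snai2, Twist1, Twist2 and Prrx1) and 2 lower (Foxf1 and Meox1), where 7.51% of all genes were called higher and 7.30% lower. RACVECs against cultured ECs gave 0 higher and 1 lower (Meox1), with a background of 0.621% and 1.26%. Snai2, Twist1 (log2 difference 4.86, adjusted p = 0.136) and Twist2 were higher at an unadjusted p below 0.05 with a log2 difference above 1, as were 684 of all genes. Without Akt-LEC 1 and Akt-liver EC 1, RACVECs had 3 genes called higher, Snai2, Twist2 and Prrx1. These libraries were left out after the data were seen and held the highest Snai2, Twist2 and Prrx1 of their groups, so larger differences followed from the choice. Akt-LECs against Akt-liver ECs gave 0 lower and 0 higher (background 0.0134% and 0.00%, and 0 of the list at an unadjusted p below 0.05).

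Cultured and directly sorted liver ECs differed in part of the list. In Akt-liver ECs against LSECs 3 genes were higher and 1 lower, where 14.1% and 12.9% of all genes were called. Snai1, at 21.1, 21.2 and 62.5 in LSECs, was higher in Akt-liver ECs by 2.41 (standard error 0.59, adjusted p = 0.00417) and Foxf1 by 5.11 (standard error 0.92, adjusted p = 0.000330). Meox1 was higher too (adjusted p = 0.000644), with no fold given because every LSEC library was listed at 0. Zeb2 was lower by a log2 difference of -3.13 (standard error 0.90, adjusted p = 0.0116). The values for Twist1, -4.52 (adjusted p = 0.0736), and Tcf21, -2.75 (adjusted p = 0.0694), were not called and were called without Akt-LEC 1 and Akt-liver EC 1 (adjusted p = 0.0255 and 0.0147), where both remaining Akt-liver ECs were listed at 0. LSECs also carried macrophage, hepatocyte and stellate cell markers and an active Akt virus was present only in the cultured cells, so culture, Akt and other cells cannot be told apart.

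Genes around these factors were taken from lists and counted in the same fit. Of 7 E proteins and Id factors, the partners and inhibitors of Twist factors, 0 were called between RACVECs and MACs. Id3 was 1505 ± 760 (SD, n = 3) in MACs and 2013 ± 967 in RACVECs, and Id1 was 1188 ± 247 and 2099 ± 498. Of 21 other mesenchymal transcription factors that passed the filter, 0 were called, and their median log2 fold change was -0.70 against 0 over all genes. Prrx2, the paralog of Prrx1, was 647 ± 556 in MACs and 69.8 ± 29.6 in RACVECs (log2 fold change -2.67, adjusted p = 0.351). Gata4, the other gene named from this list, averaged 0.393 in MACs and was listed at 0 in all RACVECs. In Sox17-RACVECs against MACs 4 of the 21 were lower, Prrx2, Foxs1, Osr1 and Sox9 (background 6.83%), and in Akt-RACVECs against Akt-MACs 3, Prrx2, Foxs1 and Sox9 (background 13.4%).

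Of 24 mesenchymal effectors, genes of the matrix and cytoskeleton such as collagens and vimentin, 0 were called between RACVECs and MACs, with a median of -0.94. Vim was 10460 ± 2797 (SD, n = 3) in MACs and 8183 ± 595 in RACVECs, and Sparc 6239 ± 2901 and 4479 ± 1061. In Akt-RACVECs against Akt-MACs 8 of the 24 were lower (Cdh2, Cdh11, Col1a1, Postn, Lox, Dcn, Acta2 and Tagln), where 13.4% of all genes were. The Akt-MACs carried the macrophage and mesothelial markers given above, whose part in these counts was not tested. In Sox17-RACVECs against MACs 6 were lower (Cdh2, Cdh11, Thy1, Postn, Lox and Lum, background 6.83%). In MACs against cultured ECs 10 were higher (background 7.51%). Col1a1 followed Prrx1 in part, with 1121, 184 and 1254 in RACVECs 1, 2 and 3 and at most 19.2 in Akt-RACVECs. It did not in Akt-MACs 1, 2 and 3, with 556, 271 and 971, where Akt-MAC 3 had the lowest Prrx1. Sox17-RACVECs 1, 2 and 3 held Col1a1 at 92.3, 0.67 and 92.1.

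Of 18 epithelial genes that passed the filter, the class that Snail and Zeb factors repress, 0 were called between RACVECs and MACs and the median log2 fold change was 0. Cdh1, which encodes E-cadherin, was listed at 0 in all MACs, RACVECs, Akt-RACVECs and Sox17-RACVECs, and Epcam likewise. Krt19 was 38.8 ± 21.4 (SD, n = 3) in MACs and 524 ± 555 in RACVECs (adjusted p = 0.333), and Krt18 was 0, 0 and 8.42 in MACs and above 0 in all RACVECs. Of 16 Tgf-beta and Yap genes, 1 was called, Ski, a repressor of Smad signalling, which fell from 259 ± 55.4 to 98.3 ± 23.8 (log2 fold change -1.39, standard error 0.24, adjusted p = 0.00363). Ski was also called lower in Akt-RACVECs against Akt-MACs and in Sox17-RACVECs against MACs.

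The 6 endothelial markers that rose from MACs to RACVECs were Cdh5, Pecam1, Kdr, Tie1, Esam and Egfl7. Cdh5, which encodes VE-cadherin, rose from 1.32 ± 0.527 (SD, n = 3) to 1427 ± 520 (log2 fold change 9.22, adjusted p = 1.92e-09), and Kdr from 5.54 ± 5.43 to 161 ± 56.8 (log2 fold change 4.87, adjusted p = 0.000187). Tie1 rose by 6.97 (adjusted p = 2.20e-05) and Esam by 5.19 on the log2 scale (adjusted p = 0.0126). RACVEC 2 had the highest summed endothelial markers of the 3 RACVECs (4496 against 2175 and 3656) and the lowest Prrx1 (8.27), Col1a1 (184) and Pdgfra (4.47), but the highest Snai2 (198). Its Twist1 (177) and Twist2 (236) were the lowest of the RACVECs and within the range of the MACs.

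Over the 24 libraries, Snai2, Twist2 and Prrx1 varied together. The Pearson correlation of log2(FPKM + 1) was 0.86 between Snai2 and Twist2, 0.83 between Twist2 and Prrx1, 0.68 between Snai2 and Twist1 and 0.65 between Twist1 and Twist2, whereas it was -0.60 between Snai1 and Zeb2. These points share groups and the libraries that stand apart, and the values are a description. Among all genes whose FPKM averaged at least 10, the pattern most like Twist1 was that of Pcolce (r = 0.94), that most like Prrx1 those of Vasn and Dact3 (0.94 each), and Col6a1 was the named gene closest to Twist2 (0.91). Snai2 was closest to Mgp (0.87) and Gemin8 (0.86), Snai1 to Eef1b2 (0.85) and Zeb1 to Zfp608 (0.85). Zeb2 was closest to Tank (0.90) and Ptprj (0.89), Tcf21 to the leukocyte genes Cd48 and Bcl2a1b (0.92 each), Foxf1 to Col18a1 (0.90) and Meox1 to Tbx1 (0.98).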

How the data were processed

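RNA of 24 libraries, 3 in each of 8 groups, was used. Per the labels and methods, the authors mapped paired reads with TopHat to mm9 (printed as mmp9) and deposited FPKM from Cufflinks with upper-quartile normalization and bias correction, 1 value per RefSeq transcript. Versions are not given in the sources used here. Depth is unknown, so precision is the spread between libraries, which the study describes as separate isolates.

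Of 27583 transcripts, 26930 were joined to a symbol and FPKM were summed per symbol, giving 22282 genes. The sum per library was 1689486 to 2317294. Groups were compared on log2(FPKM + 1) with limma 3.58.1 in R 4.3.3, in 1 fit over 8 groups with a mean-variance trend, for 14964 genes whose FPKM averaged at least 1, two-sided with Benjamini-Hochberg adjustment. The procedure was tested on simulated data. The term cultured ECs stands for the Akt-LEC and Akt-liver EC group means taken equally. The members and the lists were chosen with earlier results of these data known. All members were named. From each other list, up to 4 genes called between RACVECs and MACs were named, filled up to 2 by mean FPKM, and for likeness 1 or both of the 2 genes of highest correlation. Marker lists other than the endothelial one are given mainly as sums, and a gene that this rule names is not reported here. Genes named beyond this were chosen after their values were seen. Same-numbered libraries were not treated as pairs. Joins, motifs and figures used Python 3.11.15 with pandas 2.3.3 and matplotlib 3.10.9.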

Additional observations from a re-analysis of the deposited data

How the results depend on the processing

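Alternatives were pseudocounts of 0.1 and 10, no filter or a mean FPKM of at least 10, the highest transcript in place of the sum, scaling by the median shift, fits without LSECs or of only the compared groups, replicate blocks, the unadjusted criterion of the study's methods, and leaving out each library in turn. Chosen after seeing the data were fits without Akt-LEC 1 and Akt-liver EC 1, without Akt-MACs 2 and 3, and with the header pairs of MACs and RACVECs as a block. RACVECs against MACs gave 0 genes in either direction under every alternative run. The counts below are of the 10 genes, and the cause of each change was not tested.

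For MACs against cultured ECs (2 lower, 4 higher), a pseudocount of 0.1 gave 1 and 1, the compared groups alone 0 and 1, leaving out the LSECs 1 and 1, and the study's criterion 1 and 0. Leaving out single libraries gave 0 to 2 lower (0 without MAC 1) and 1 to 5 higher (1 without MAC 1, 5 without Akt-LEC 1). For RACVECs against cultured ECs (1 lower, 0 higher), the compared groups alone gave 0 lower, the study's criterion 2 and 3, the fit without Akt-LEC 1 and Akt-liver EC 1 gave 3 higher, and single libraries 0 to 2 lower and 0 to 2 higher.

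For Akt-RACVECs against Akt-MACs (1 lower, 1 higher), scaling gave 2 higher, the compared groups alone and the study's criterion 0 higher, and the fit without Akt-MACs 2 and 3 gave 0 and 0. Single libraries gave 1 to 2 lower and 0 to 2 higher. For Sox17-RACVECs against MACs (1 lower), leaving out the LSECs and the study's criterion gave 0, and single libraries 0 to 1. For Akt-MACs against MACs (1 lower, 0 higher), the compared groups alone, the study's criterion and the fit without Akt-MACs 2 and 3 gave 0 lower, and single libraries 0 to 3 lower and 0 to 1 higher, the 3 and the 1 without Akt-MAC 1.

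For Akt-liver ECs against LSECs (1 lower, 3 higher), the fit without Akt-LEC 1 and Akt-liver EC 1 gave 3 lower, the study's criterion 2 lower and 1 higher, and single libraries 0 to 3 lower (0 without Akt-liver EC 3) and 3 higher throughout. The study's criterion gave 3 lower and 1 higher for Akt-RACVECs against RACVECs and 1 lower for Sox17-RACVECs against RACVECs, where limma gave 0. The F test called 3 of 10 without the LSECs, and 6 to 10 without single libraries.

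The correlation of deviations was over 0.1 for all 3 numbers in no comparison (mean -0.03 for RACVECs with MACs). It was 0.57, 0.37 and -0.05 for Akt-LECs with Akt-liver ECs, and same-numbered libraries were not used as pairs. As a replicate block over all groups, the number gave 1 lower for Akt-RACVECs against RACVECs, 1 lower for MACs and 2 higher for RACVECs against cultured ECs, and 2 lower for Akt-liver ECs against LSECs. With the block and the compared groups alone, Akt-RACVECs against Akt-MACs gave 0 and 0, Sox17-RACVECs against MACs, Akt-MACs against MACs, RACVECs against cultured ECs and Akt-liver ECs against LSECs 0 lower each, and MACs against cultured ECs 0 lower and 1 higher. In that fit no gene of the whole table was called for RACVECs, Akt-MACs or Sox17-RACVECs against MACs or for Akt-RACVECs against Akt-MACs (smallest adjusted p = 0.262, 0.569, 0.102 and 0.0810), so those zeros say nothing about the 10 genes.

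Among fold changes given, 4 reversed, all small and not called, when 1 library was left out. From MACs to RACVECs, Snai1 ranged from -0.34 to 0.59, Snai2 from -0.91 to 0.0068, Twist1 from -1.01 to 0.55 and Foxf1 from -0.22 to 0.39.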
